A study of Homo sapiens with 6 samples.

Results

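Oncofetal liver cancer genes are active in the fetal liver, are largely silent in the healthy adult liver and are read again in hepatocellular carcinoma (HCC). The 9 genes described here were chosen by name, and they are AFP, GPC3, DLK1, LIN28B, IGF2BP1, IGF2BP2, IGF2BP3, PEG10 and HMGA2, out of 19974 annotated genes in the expression table. Their mRNA was compared between Huh7 P, the untreated parental human HCC cell line, and Huh7 LR, a lenvatinib-resistant line raised from it, with 3 samples of each. Huh7 LR cells were exposed to lenvatinib, an inhibitor of several receptor tyrosine kinases, from 1 μM upwards for 10 months and were then kept in 20 μM. Both lines were labelled wild type. Huh7 LR is a single derived line and whether it is a clone is not given in the sources used here, so the p-values measure the spread between samples of 2 cell lines, and the presence of the drug in the medium and the history of selection cannot be told apart. The libraries held between 62738937 and 71427573 counts.

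Several of these genes belong to connected circuits. LIN28B blocks the maturation of let-7 microRNAs, which in turn repress LIN28B itself, HMGA2 and the IGF2BP family in adult tissues. The IGF2BP proteins bind mRNAs and protect them from decay, and among the mRNAs they bind are those of fetal growth genes such as IGF2. AFP is the serum marker of HCC and lies beside its adult counterpart ALB, and GPC3 is a cell surface proteoglycan used as a target of antibodies and engineered T cells.

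The labelled cell type was checked against marker genes. All 8 hepatocyte markers were detected, and their summed FPKM (the authors' fragment count scaled by transcript length and library size, which allows levels of different genes to be compared) ran from 8249 to 9146 in Huh7 P and from 13249 to 14043 in Huh7 LR. Of the other cell types that a culture could hold, the 6 fibroblast markers summed to between 0.378 and 0.428 FPKM in Huh7 P and to between 0.848 and 1.68 FPKM in Huh7 LR, most of it COL1A1, which was called higher (log2 fold change 1.84, edgeR adjusted p = 9.12e-05), a call lost without Huh7 P replicate 3 (COL1A1 adjusted p = 0.00105), with PDGFRB up by 0.84 (edgeR adjusted p = 0.00953) and DCN at 0 in both lines. The 4 endothelial markers summed to between 5.41 and 6.46 FPKM in Huh7 P and to between 8.96 and 9.80 FPKM in Huh7 LR, nearly all of it PECAM1, which rose by 0.64 (edgeR adjusted p = 0.000135). VWF had 0, 0 and 8 counts in the parental line, against 19, 26 and 21 in the resistant line (edgeR adjusted p = 0.0179), while KDR and CDH5 were listed at 0. The 5 leukocyte markers summed to between 37.0 and 40.9 FPKM in Huh7 P and to between 5.94 and 8.10 FPKM in Huh7 LR, nearly all of it LYZ, with TYROBP at 0. The part of these shifts in the results below was not tested.

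Of the 9 genes, 8 had enough counts to test, and DLK1 did not. The tested genes moved in both directions. GPC3 was the only one called higher in Huh7 LR and HMGA2 the only one called lower, where a gene was called when edgeR's quasi-likelihood test gave an adjusted p under 0.001 and the lines differed by more than 2-fold. The same calls took in 4.43% (higher) and 1.78% (lower) of all 17531 genes and loci tested. At an adjusted p under 0.05 with no limit on the fold, 3 of the 8 rose (GPC3, IGF2BP2 and IGF2BP3), 3 fell (LIN28B, IGF2BP1 and HMGA2) and 2 did not pass (AFP and PEG10), against 23.3% higher and 22.4% lower over the whole table. Without Huh7 P replicate 2, in which the LIN28B count stood apart, 2 rose and 3 fell, with IGF2BP3 no longer passing. In 3 genes all Huh7 LR libraries lay above all Huh7 P libraries and in 3 all lay below, which was so for 28.2% and 27.7% of all genes and loci. The median log2 fold change of the 8 genes was −0.03, beside 0.0046 over everything tested. As the RNA came from whole cultures, fewer expressing cells and less RNA per cell cannot be told apart in any of these differences.

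**Figure D1:**
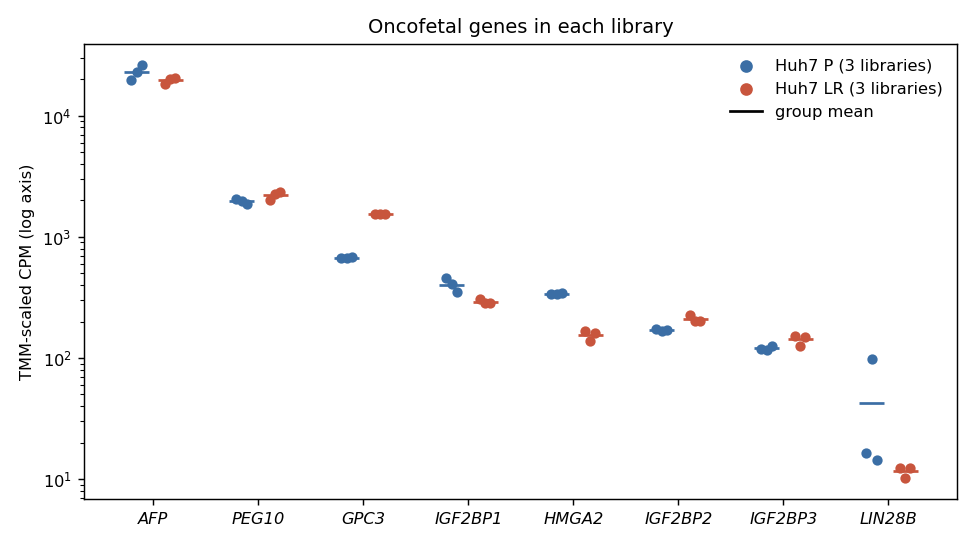
Depth-scaled counts (CPM, log axis) of the 8 tested oncofetal genes in each of the 3 Huh7 P and 3 Huh7 LR libraries, with a line at each group mean. GPC3 and HMGA2 separate widely between the lines, and 1 Huh7 P library stands far above the rest for LIN28B.

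**Figure D2:**
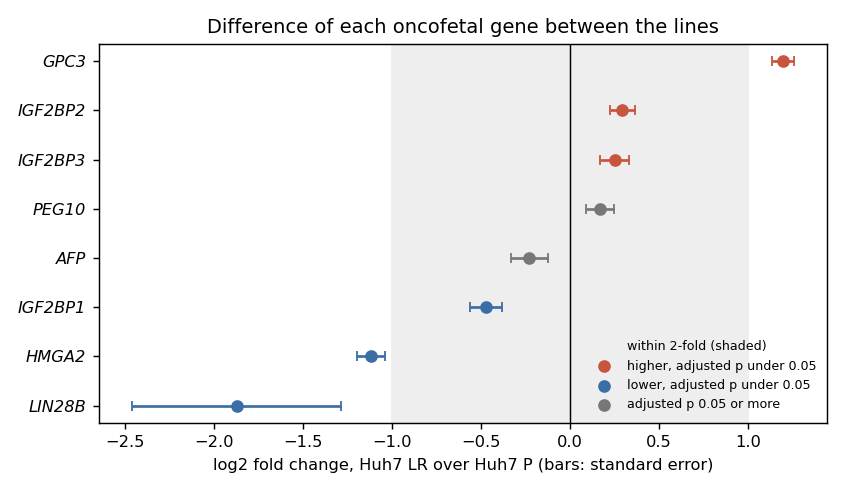
Log2 fold change of each tested oncofetal gene in Huh7 LR over Huh7 P, with bars for the standard error, coloured by whether the adjusted p was under 0.05. The estimates run from −1.87 (LIN28B) to 1.20 (GPC3), but that of LIN28B is −0.40 without Huh7 P replicate 2, which leaves HMGA2 (−1.12) the lowest, and the shaded band marks changes within 2-fold.

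AFP (chr4:73431138-73456174, plus strand, GRCh38) encodes alpha-fetoprotein, the main plasma protein of the fetus. It was the second most abundant annotated gene by FPKM in Huh7 P and ranked 4 in Huh7 LR, and it took between 1.89% and 2.58% of all counts in a library. The Huh7 P libraries gave AFP values of 7318, 8490 and 9674 FPKM, and the Huh7 LR libraries gave 6956, 7458 and 7754 FPKM. The 2 groups overlapped, since the lowest Huh7 P library lay below the 2 higher Huh7 LR libraries. In CPM, the counts scaled to library size with edgeR's TMM factors, AFP was 22997 ± 3405 (SD, n = 3) in Huh7 P and 19620 ± 1196 in Huh7 LR. The log2 fold change was −0.23 (SE 0.10), and the difference did not pass (edgeR adjusted p = 0.0923). Without Huh7 P replicate 1, the lowest of that group, the log2 fold change was −0.33 and the edgeR adjusted p was 0.00992. Without Huh7 P replicate 3, the highest, they were −0.12 and 0.350.

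ALB (chr4:73397114-73421412, plus strand), which encodes albumin and replaces AFP as the main liver plasma protein after birth, lies next to AFP on the same strand. ALB was at 4792, 5320 and 5656 FPKM in Huh7 P, against 9463, 8318 and 9013 FPKM in Huh7 LR. All Huh7 LR libraries were above all Huh7 P libraries, with a log2 fold change of 0.74 (SE 0.08, edgeR adjusted p = 4.68e-05). The AFP to ALB ratio of FPKM was 1.53, 1.60 and 1.71 in Huh7 P, against 0.735, 0.897 and 0.860 in Huh7 LR. AFP exceeded ALB in every Huh7 P library and ALB exceeded AFP in every Huh7 LR library. The mean log2 ratio differed by −0.96 between the lines, with p = 0.1 in an exact two-sided permutation test, the smallest p that 3 samples against 3 allow. Of the other 2 albumin-family genes of the cluster, GC, the vitamin D-binding protein, was called higher (log2 fold change 1.02, edgeR adjusted p = 0.000267), but the call was lost with 4 of the 6 libraries left out in turn, and the log2 fold change was 0.79 without Huh7 LR replicate 1. AFM, which encodes afamin, had a log2 fold change of 0.11 (edgeR adjusted p = 0.775).

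The promoters of AFP and ALB are shown because the pair changed its order between the lines. The sequences are from RefSeq (GRCh38.p14, plus strand, 250 bases before to 50 bases after the annotated start). Capitals mark TATAAA, a common form of the TATA box, searched on both strands, and other forms were not searched. The AFP window is chr4:73435971-73436270 and the ALB window chr4:73404037-73404336.
AFP: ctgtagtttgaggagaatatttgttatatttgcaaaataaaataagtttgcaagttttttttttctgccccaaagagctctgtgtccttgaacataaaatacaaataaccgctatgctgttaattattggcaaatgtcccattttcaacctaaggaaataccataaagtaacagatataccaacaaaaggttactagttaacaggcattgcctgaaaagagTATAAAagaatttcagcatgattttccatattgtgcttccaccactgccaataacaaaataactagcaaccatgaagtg
ALB: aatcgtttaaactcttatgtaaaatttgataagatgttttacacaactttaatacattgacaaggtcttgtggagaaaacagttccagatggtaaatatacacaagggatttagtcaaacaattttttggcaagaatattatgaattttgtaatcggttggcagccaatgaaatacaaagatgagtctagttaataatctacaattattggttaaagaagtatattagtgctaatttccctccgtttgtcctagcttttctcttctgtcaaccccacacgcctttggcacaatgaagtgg
The AFP window held TATAAA starting at position −29 relative to the start, and these letters are not in the ALB window. Of 35116 RefSeq promoter windows of the same length, 11.5% held TATAAA. The match describes letters in a window and no binding was measured.

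A list of 21 known regulators of AFP, activators and repressors alike, was read beside this pair. Of the 20 tested, 10 rose, 2 fell and 8 did not pass at an adjusted p under 0.05, with a median log2 fold change of 0.25 beside 0.0046 over everything tested. This count, and that of each list below, stands beside 23.3% higher and 22.4% lower over all genes and loci. ZHX2, a repressor of AFP in the adult liver, fell by 0.27 on the log2 scale (edgeR adjusted p = 0.00542), from 14.1 to 11.9 FPKM. ZBTB20, another postnatal repressor of AFP, rose by 0.71 (edgeR adjusted p = 0.000245) but stayed low, at 0.393 FPKM in Huh7 P and 0.775 FPKM in Huh7 LR. These 2 repressors thus moved in opposite directions, and ZFHX3, also on the list, did not pass (0.14, edgeR adjusted p = 0.319). CEBPA, an activator of hepatocyte genes, rose by 0.58 (edgeR adjusted p = 5.55e-05), and GLI1, an effector of hedgehog signalling, was the only one called higher (1.73, edgeR adjusted p = 0.000597), a call lost without any 1 of the Huh7 P libraries. Of 14 adult hepatocyte markers, ALB included, 8 rose, 1 fell and 5 did not pass (median 0.48), and FGB, the fibrinogen beta chain, was called higher (2.49, edgeR adjusted p = 1.52e-07). CYP3A4, the main adult cytochrome, was also called higher at low levels, with 0.111 ± 0.00327 CPM (SD, n = 3) in Huh7 P and 0.645 ± 0.0975 in Huh7 LR, and its call was lost whichever library was left out.

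**Figure D3:**
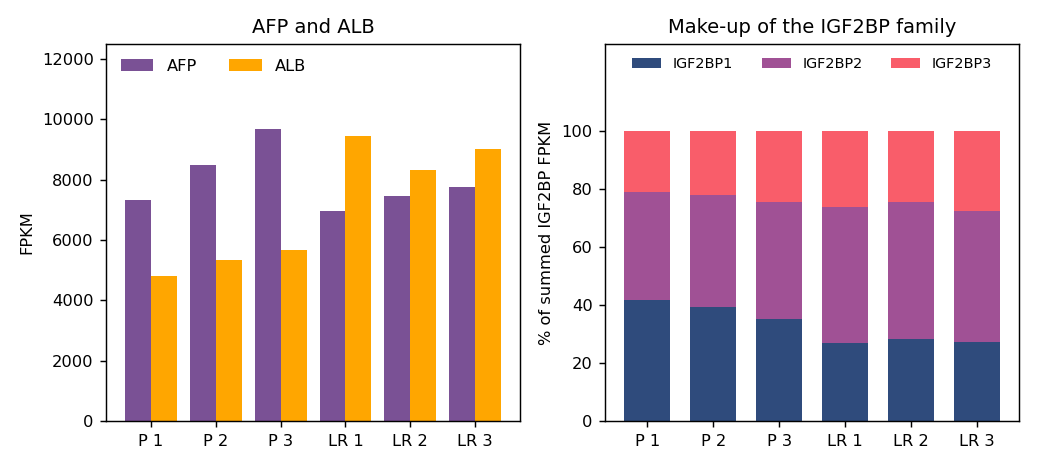
Left, the authors' FPKM of AFP and ALB in each library; right, the share of each IGF2BP gene in the summed FPKM of the family in each library. ALB passes AFP in the 3 Huh7 LR libraries, and the IGF2BP1 share falls from a mean of 38.7% in Huh7 P to 27.5% in Huh7 LR.

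GPC3 (chrX:133535745-133985895, minus strand) encodes glypican-3, a heparan sulphate proteoglycan tethered to the cell surface. It had 671, 670 and 682 scaled CPM in Huh7 P, against 1558, 1550 and 1534 in Huh7 LR. The libraries within each line were nearly identical and the lines were far apart. The log2 fold change was 1.20 (SE 0.06, edgeR adjusted p = 2.71e-07), a rise of 2.29-fold. By FPKM it went from 259 ± 5.44 (SD, n = 3) to 619 ± 19.1, and its rank among annotated genes went from 182 to 65. Leaving out any library kept the log2 fold change between 1.19 and 1.21.

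The other genes that build or carry heparan sulphate were examined as a list of 22. Of the 21 tested, 11 rose, 1 fell and 9 did not pass (median log2 fold change 0.34). GPC5 was called higher but at low levels, with 0.191 ± 0.0207 CPM (SD, n = 3) in Huh7 P and 2.51 ± 0.882 in Huh7 LR, and EXT2, a polymerase of the heparan sulphate chain, was called higher with a log2 fold change of 1.06 (SE 0.13, edgeR adjusted p = 5.66e-05). The log2 fold change of EXT2 was below the limit for a call without Huh7 P replicate 1 (0.99) or Huh7 LR replicate 2 (0.94). GPC4, the neighbour of GPC3 on the X chromosome, had counts of 4, 0 and 6 in the parental line, against 13, 43 and 24 in the resistant line, which is close to the floor of 3 counts per library for Huh7 P, and it passed at an edgeR adjusted p of 0.00835. SDC2 and SDC4, syndecans of the cell surface, rose by 0.25 and 0.70 on the log2 scale (edgeR adjusted p = 0.0119 and 1.61e-05), and SDC2 no longer passed without Huh7 P replicate 1 (0.0544) or Huh7 P replicate 2 (0.0663). FURIN, the protease known to cleave glypican-3, had a log2 fold change of −0.03 (edgeR adjusted p = 0.863).

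DLK1 (chr14:100725705-100738224, plus strand), a NOTCH-related membrane protein of hepatoblasts, was at or near the detection limit at this depth. It had 0 counts in all Huh7 P libraries and 0, 4 and 0 counts in Huh7 LR, where 3 counts correspond to between 0.042 and 0.049 CPM. Of the imprinted cluster that holds DLK1, RTL1 was also at 0, DIO3, a thyroid hormone deiodinase, had 0.907 ± 0.136 CPM (SD, n = 3) in Huh7 P and 1.00 ± 0.195 in Huh7 LR (edgeR adjusted p = 0.680), and MEG3 was not analysed here. Of a list of 14 NOTCH receptors, ligands, proteases and targets 12 were tested, and 5 rose, 2 fell and 5 did not pass (median 0.22). NOTCH1 was called lower (log2 fold change −1.71, SE 0.11, edgeR adjusted p = 8.60e-07). Its log2 fold change was −0.99 in 1 of the 7 alternatives that kept all libraries, and the call was lost there. NOTCH2 and NOTCH3 rose by 0.48 and 0.83 (edgeR adjusted p = 0.000279 and 0.00257).

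LIN28B (chr6:104936616-105083332, plus strand) encodes the RNA-binding protein that keeps let-7 precursors from maturing. Huh7 P libraries held 1176, 6014 and 945 LIN28B counts, and Huh7 LR libraries 811, 713 and 841. All Huh7 P libraries were above all Huh7 LR libraries, but Huh7 P replicate 2 stood far above the other 5. The scaled CPM was 42.8 ± 47.4 (SD, n = 3) in Huh7 P and 11.6 ± 1.28 in Huh7 LR, so that the spread in Huh7 P was as large as its mean. The log2 fold change was −1.87 (SE 0.59, edgeR adjusted p = 0.0227). Without Huh7 P replicate 2 it was −0.40 (edgeR adjusted p = 0.0400), so the direction held and the size was much smaller. The call at 0.05 was lost without Huh7 LR replicate 2 (adjusted p = 0.0702) or Huh7 LR replicate 3 (0.0609).

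The FPKM of LIN28B moved less than its counts, with a log2 fold change of −0.60 in limma on log2(FPKM + 1). They were 16.7, 26.3 and 14.4 in Huh7 P, against 12.9, 10.3 and 12.6 in Huh7 LR. Dividing each count by its FPKM and the depth gives the transcript length behind the value, and this was between 974 and 996 bases in 5 libraries and 3639 bases in Huh7 P replicate 2. Of the annotated LIN28B transcripts, LIN28B-202 has 912 bases, LIN28B-203 has 2635 and LIN28B-201 has 5505. The longest implied length of LIN28B was 3.74 times the shortest, the sixth largest ratio among the 12437 genes that reached 100 counts in all libraries, of which 61 exceeded a ratio of 2. For the other 7 tested oncofetal genes the ratio was between 1.02 and 1.04. LIN28B was also the only gene above 10 CPM in Huh7 P replicate 2 that exceeded every other library by more than 2.5 times, and the cause was not tested. Its paralogue LIN28A had at most 23 counts in a library and was not tested.

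**Figure D4:**
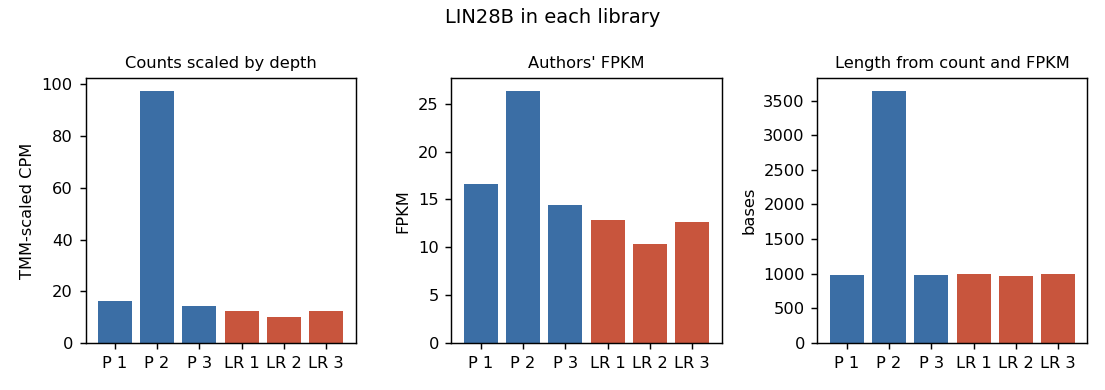
LIN28B in each of the 6 libraries as scaled CPM, as the authors' FPKM and as the transcript length in bases implied by count and FPKM, all on linear axes from 0. Huh7 P replicate 2 stands apart in each panel, with an implied length of 3639 bases beside 974 to 996 in the others.

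The 3 IGF2BP genes encode paralogous mRNA-binding proteins that are common in the embryo, and they did not move together. IGF2BP1 (chr17:48997412-49055650, plus strand) had 454, 407 and 352 scaled CPM in Huh7 P, against 304, 283 and 287 in Huh7 LR. Every Huh7 LR library was below every Huh7 P library, and the log2 fold change was −0.47 (SE 0.09, edgeR adjusted p = 0.00151). IGF2BP2 (chr3:185643739-185825056, minus strand) had 173, 168 and 169 scaled CPM in Huh7 P, against 226, 200 and 201 in Huh7 LR. Every Huh7 LR library was above every Huh7 P library, with a log2 fold change of 0.30 (SE 0.07, edgeR adjusted p = 0.00596).

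IGF2BP3 (chr7:23310209-23470467, minus strand) had 118, 116 and 125 scaled CPM in Huh7 P, against 153, 127 and 149 in Huh7 LR. The groups came close, with the lowest Huh7 LR library just above the highest Huh7 P library, and the log2 fold change was 0.25 (SE 0.08, edgeR adjusted p = 0.0273). The difference no longer passed without Huh7 P replicate 1 (0.0867), Huh7 P replicate 2 (0.113), Huh7 LR replicate 1 (0.0688) or Huh7 LR replicate 3 (0.108). IGF2BP3 shares 1521 exon bases, or 17.9% of its exons, with MALSU1 on the opposite strand, a mitochondrial ribosome factor whose log2 fold change was 0.47 (edgeR adjusted p = 0.000319). The library kit does not mark strand, so reads from the shared bases cannot be assigned to either gene.

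By FPKM, the summed level of the family was 116 ± 6.35 (SD, n = 3) in Huh7 P and 120 ± 8.67 in Huh7 LR (exact two-sided permutation test, p = 0.6). Within that sum the share of IGF2BP1 was 41.6%, 39.2% and 35.3% in Huh7 P, against 26.8%, 28.3% and 27.2% in Huh7 LR. The share of IGF2BP2 went from 38.8% ± 1.44 to 46.4% ± 0.998 and that of IGF2BP3 from 22.5% ± 1.76 to 26.2% ± 1.46. None of the 3 shares overlapped between the lines, and each gave p = 0.1 in the exact two-sided permutation test, the smallest possible here. IGF2BP1 led in Huh7 P replicates 1 and 2 and IGF2BP2 in Huh7 P replicate 3, whereas IGF2BP2 led in every Huh7 LR library. This order holds per length; in scaled CPM, which favour the longer IGF2BP1 mRNA, IGF2BP1 took between 44.5% and 60.9% of the family in all 6 libraries. The sum in scaled CPM went from 695 ± 49.1 to 643 ± 37.0 (exact two-sided permutation test, p = 0.2), the opposite direction to the FPKM sum.

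Of 15 tested mRNAs known to be bound by IGF2BP proteins, LIN28B and HMGA2 included, 5 rose, 5 fell and 5 did not pass (median 0.09). MYC, a transcription factor whose mRNA IGF2BP1 stabilises, was called lower with a log2 fold change of −1.52 (SE 0.10, edgeR adjusted p = 1.35e-06), and CD44, an adhesion receptor, was called lower at low levels, from 4.84 ± 0.517 CPM (SD, n = 3) to 0.708 ± 0.424. The log2 fold change of CD44 was −2.78 (edgeR adjusted p = 4.99e-05), and −3.38 without Huh7 LR replicate 1. In 1 of the 7 alternatives that kept all libraries it was −0.92, and the call of CD44 was lost there. ABCB1, the drug efflux pump MDR1, rose by 1.55 (edgeR adjusted p = 1.36e-06), and MAPK4, an atypical kinase, rose by 1.33 (edgeR adjusted p = 2.04e-06). ACTB, the beta-actin mRNA and the most abundant of the list, rose by 0.36 (edgeR adjusted p = 0.00400). IGF2, the fetal growth factor that named the family, rose by 0.45 (edgeR adjusted p = 0.00640). IGF2 is listed under 2 identifiers whose annotated spans overlap, and the value is that of the more abundant one.

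PEG10 (chr7:94656325-94669695, plus strand) is a paternally expressed imprinted gene derived from a retrotransposon. Its scaled CPM were 2040, 1977 and 1879 in Huh7 P, against 2008, 2273 and 2343 in Huh7 LR. The groups overlapped in 1 library, and the difference did not pass (log2 fold change 0.17, SE 0.08, edgeR adjusted p = 0.0994). Without Huh7 LR replicate 1, the lowest of its group, the log2 fold change was 0.23 (edgeR adjusted p = 0.0294). Leaving out Huh7 LR replicate 3, the highest, gave 0.12 (edgeR adjusted p = 0.331) for PEG10. Its imprinted neighbour SGCE on the opposite strand, which shares 219 exon bases with it, rose by 0.30 (edgeR adjusted p = 0.00803). Of 17 genes tested from a list of imprinted genes, 8 rose, 1 fell and 8 did not pass (median 0.30). In this list IGF2R and GRB10, which restrain growth factor signalling, stood at 0.35 and 0.57 (edgeR adjusted p = 0.00199 and 3.42e-05). Whether the listed genes are imprinted in these cells was not tested.

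HMGA2 (chr12:65824131-65966295, plus strand) encodes a chromatin protein of the embryo that binds AT-rich DNA. It had 336, 335 and 343 scaled CPM in Huh7 P, against 167, 139 and 161 in Huh7 LR. All Huh7 LR libraries lay far below the parental ones, and the log2 fold change was −1.12 (SE 0.08, edgeR adjusted p = 2.06e-06). By FPKM it went from 69.8 ± 0.855 (SD, n = 3) to 32.7 ± 3.34. Its paralogue HMGA1 fell by 0.72 on the log2 scale (SE 0.09, edgeR adjusted p = 5.78e-05), from 101 to 62.3 FPKM.

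The oncofetal genes known as let-7 targets are shown with their first site, since LIN28B acts through let-7. The let-7 family shares the seed (bases 2 to 8, in capitals), as in these mature sequences from RefSeq (GRCh38.p14).
let-7a-5p: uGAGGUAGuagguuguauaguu
let-7d-5p: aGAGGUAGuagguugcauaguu
miR-98-5p: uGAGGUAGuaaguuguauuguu
The match to this seed is CTACCTC in the 3′ untranslated region (UTR), in capitals below within 30 bases of GENCODE release 29 transcripts (GRCh38), 1 site for each gene.
LIN28B, chr6:105078812-105078841, plus strand: acccggttgcaaagtCTACCTCatgcaagt
IGF2BP1, chr17:49051061-49051090, plus strand: tgtgtgcgaagtaaaCTACCTCaaggtatg
IGF2BP2, chr3:185644213-185644242, minus strand: aacacacagaagaagCTACCTCaggtgttt
IGF2BP3, chr7:23311788-23311817, minus strand: tgcatttttactcaaCTACCTCaggtattc
HMGA2, chr12:65963298-65963327, plus strand: gccaacgttcgatttCTACCTCagcagcag
An A after the match favours binding by the silencing complex. It follows each of the 5 sites shown, but only 8 of all 14 sites in these genes, namely 2 of 4 in LIN28B, 3 of 4 in IGF2BP1, 1 of 4 in HMGA2 and the single sites in IGF2BP2 and IGF2BP3.

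LIN28B, IGF2BP1 and HMGA2 each held 4 such matches in the UTR of their principal transcript. IGF2BP2 and IGF2BP3 each held 1, and AFP, GPC3, DLK1 and PEG10 held 0. These counts depend on the transcript. HMGA2-204 holds the 4 matches of HMGA2, whereas HMGA2-210, with the longest UTR at 7421 bases, holds 0, and the principal transcript was chosen after that 0 was seen. The 4 matches of LIN28B are in LIN28B-201, while the length implied in 5 libraries was nearest to LIN28B-202, for which no 3′ UTR is annotated. The link between the number of matches and the direction of change therefore cannot be read from these 5 genes. Over 13839 tested genes with an annotated 3′ UTR, 9.60% held at least 1 match, 1.06% at least 2 and 0.202%, or 28 genes, at least 3. Genes with 3 or more matches had a median log2 fold change of −0.01, of which 28.6% were lower and 10.7% higher by an adjusted p under 0.05, and the 12511 genes with none also had a median of −0.01, with 25.4% lower and 24.8% higher. The 28 genes include LIN28B, IGF2BP1 and HMGA2. Mature let-7 was not measured, since poly(A) selection leaves small RNAs out, and no match is evidence of repression.

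Among 17 tested genes that make or destroy let-7, 1 rose, 9 fell and 7 did not pass (median −0.22). HNRNPA1, an RNA-binding protein of microRNA precursors and the most abundant of the list, fell by 0.62 on the log2 scale (edgeR adjusted p = 3.34e-05). KHSRP, which promotes let-7 maturation, fell by 0.22 (edgeR adjusted p = 0.0327), but did not pass in 6 of 13 alternatives. DICER1 and DROSHA, the nucleases that cut microRNA precursors, fell by 0.40 and 0.42 on the log2 scale (edgeR adjusted p = 0.00163 and 0.000955), and XPO5, which exports the precursors from the nucleus, fell by 0.52 (edgeR adjusted p = 0.00121). TUT7, a uridylating enzyme of the LIN28 pathway, fell by 0.51 (edgeR adjusted p = 0.000811), while its partner TUT4 had a log2 fold change of 0.06 (edgeR adjusted p = 0.527). AGO4 alone rose, by 0.70 (edgeR adjusted p = 0.000815). Of 28 tested let-7 targets outside the 9 genes, 5 rose, 7 fell and 16 did not pass (median 0.0028), with MYC lower as above and MYCN, its paralogue, higher by 0.74 (edgeR adjusted p = 1.51e-05).

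Other genes read in the fetal liver or used as oncofetal markers were examined as a list of 30. Of the 23 tested, 6 rose, 11 fell and 6 did not pass (median −0.13). KRT19, a keratin of biliary and progenitor cells, was called lower with a log2 fold change of −2.07 (SE 0.11, edgeR adjusted p = 3.92e-07), and CD44 and the trophoblast glycoprotein TPBG were also called lower, the call of TPBG being lost with 5 of the 6 libraries left out in turn. SALL4, a stem cell factor of the fetal liver, fell by 0.43 (edgeR adjusted p = 0.0195), but did not pass in 6 of 13 alternatives (adjusted p up to 0.0828). The most abundant of the list, the glycolytic enzymes PKM and ALDOA, fell by 0.44 and 0.24 (edgeR adjusted p = 0.00232 and 0.0200), and ALDOA did not pass in 5 of 13 alternatives. CYP3A7, the fetal cytochrome, was called higher at low levels, with 0.615 ± 0.181 CPM (SD, n = 3) in Huh7 P and 2.06 ± 0.118 in Huh7 LR, and the call was lost without Huh7 P replicate 3 or Huh7 LR replicate 3. CEACAM6, an oncofetal adhesion molecule, was called higher from 0.143 ± 0.0451 to 0.755 ± 0.0915 CPM, and this call was lost with 5 of the 6 libraries left out in turn. EPCAM, a surface marker of liver progenitors, rose by 0.30 (edgeR adjusted p = 0.00443). H19 was not analysed here.

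**Figure D5:**
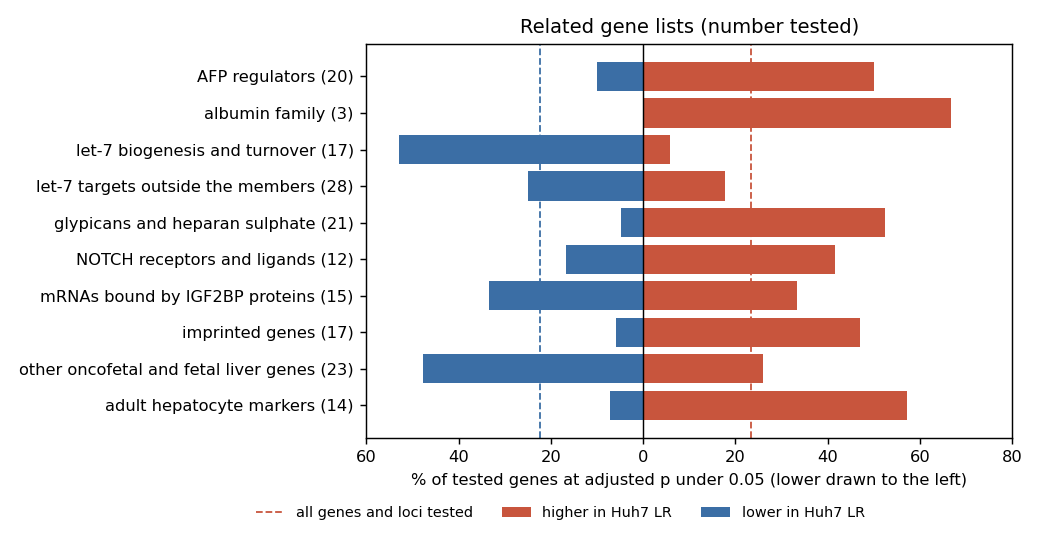
Share of the tested genes of each related list that was higher (right) or lower (left) in the resistant line by an adjusted p under 0.05, with dashed lines at 23.3% and 22.4%, the shares over all genes and loci tested. The let-7 biogenesis and turnover list, which holds genes that make and genes that destroy let-7, has 52.9% lower. The list of adult hepatocyte markers has 57.1% higher.

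The annotated genes within 500 kb of each oncofetal gene gave no common direction. Around IGF2BP3, 8 of 10 tested neighbours rose and 1 fell, with a median log2 fold change of 0.50, and IGF2BP3 itself rose by 0.25. Over all genes and loci 23.3% were higher and 22.4% lower. Around LIN28B, 2 of 4 rose and 0 fell, whereas LIN28B fell. Around IGF2BP1, 1 of 12 rose and 5 fell, including HOXB9, a homeobox gene called lower with a log2 fold change of −1.59 (edgeR adjusted p = 0.000111), a call lost without Huh7 P replicate 1 or Huh7 P replicate 3. Around HMGA2, 0 of 4 rose and 1 fell, and the lowest log2 fold change there was −0.40, beside −1.12 for HMGA2. CXCL1 near AFP and FAM221A near IGF2BP3 were called higher, and C3orf70 near IGF2BP2 was called lower, and the call of CXCL1 was lost without any 1 of the Huh7 P libraries.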

How the data were processed

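RNA of 3 Huh7 P and 3 Huh7 LR samples, described as independent, was poly(A) selected and made into NEBNext Ultra libraries, which do not mark strand. Per gene and library, the authors deposited a whole-number count, not normalised, and an FPKM value, which takes transcript length and depth into account. The submitters' processing notes name TopHat2, Cufflinks and DESeq without roles, and a mouse build that the human identifiers contradict; the labels also describe extraction from an insect. The annotation and strand setting of the counting are not given in the sources used here. The 34 lines that name no gene were left out.

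The counts were tested with edgeR 4.0.16 in R 4.3.3 (filterByExpr with a minimum count of 10 and total of 15, TMM factors, quasi-likelihood test, Benjamini-Hochberg adjustment over 17531 genes and loci). A call needed an adjusted p under 0.001 and above 2-fold, and a difference an adjusted p under 0.05. The SE is the log2 fold change divided by the root of F. FPKM ratios were compared by exact permutation tests. Coordinates, transcripts and exon overlaps are from GENCODE release 29. For 3′ UTRs, the principal transcript with the longest UTR was used, after the longest UTR of any transcript had been seen to miss the matches in HMGA2.

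The members and lists were chosen with earlier results of these data known. The rule for named genes covers all 9 members, genes called in a list, up to 4 abundant genes of each list, called neighbours and a few set genes, and not all of its abundant genes appear in the text. CEBPA, DIO3, EPCAM, COL1A1, PDGFRB, AFM, SDC4, NOTCH2, NOTCH3, IGF2R, GRB10, DICER1, DROSHA, XPO5, TUT4, TUT7, AGO4, MYCN and MALSU1, and some others that the rule does not cover, were picked with their values in view. Alternatives were DESeq2 1.42.0 (size factors and Wald test), other filters, a replicate block, limma 3.58.1 on log2 FPKM with a pseudocount of 0.1 or 1 (genes reaching 0.5 FPKM in 3 libraries), and each library left out. In data simulated from these libraries for Huh7 LR against Huh7 P, the edgeR test called 170 of 200 changed genes and 1 unchanged gene among 17257. How this number depends on the size of the fold change was not tested, and it is not a detection rate for the oncofetal genes. Figures were drawn with matplotlib 3.10.9.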

Additional observations from a re-analysis of the deposited data

How the results depend on the processing

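The counts of called genes, the counts of oncofetal genes and the AFP to ALB ratio and IGF2BP1 and IGF2BP3 shares were recomputed in 99 alternatives, of which 97 kept the direction and stayed within the set limits of the reported value. The exceptions were the calls over the whole table with limma on log2(FPKM + 1), which gave 268 higher and 84 lower in place of 776 and 312. The cause was not tested. The limits for counts were wide. Counted as the same were 551 genes and loci called higher without Huh7 P replicate 3, and 2 or 4 oncofetal genes lower at 0.05 in place of 3. The IGF2BP2 share and the IGF2BP sum were recomputed in scaled CPM only. For 78 single genes, those of the naming rule, some of which the text does not discuss, and 14 others, 943 of 999 alternatives gave the same direction and the same side of an adjusted p of 0.05, 39 lost the difference, 5 gained it and 12 changed sign, none of them an oncofetal gene. The sign changes were all in genes with no difference. HNF4A, at −0.06 by counts, was 0.37 in limma with either pseudocount, and it ran from −0.11 to 0.024 with a library left out. ARID3A was 0.0066 and 0.0064 in limma and ran from −0.074 to 0.034 with a library left out. In the same way AFM ran from −0.046 to 0.42, CDC34 from −0.10 to 0.0032, DIO3 from −0.011 to 0.27 and FURIN from −0.16 to 0.10. Of the 22 called among them, 12, GPC3 and HMGA2 included, kept the call with each library left out in turn, and 10 lost it at least once. Of the 12, C3orf70, CD44, FAM221A, GPC5, MAPK4 and NOTCH1 each lost the call in 1 of the 7 other alternatives. ABCB1, FGB, GPC3, HMGA2, KRT19 and MYC kept it in every alternative. LIN28B did not pass in DESeq2's Wald test (adjusted p = 0.0645), and its log2 fold change ran from −2.29 to −0.40 over the alternatives.

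Replicate numbers are shared by the lines. Same-numbered libraries deviated together with correlations of 0.033, 0.034 and 0.034, below the 0.1 set for a pairing. Each library nevertheless correlated best with its own number, and whether a number marks a shared batch was not tested. With the replicate block, 783 genes and loci were called higher and 316 lower, 3 oncofetal genes were higher and 4 lower at 0.05, and AFP passed (log2 fold change −0.22, edgeR adjusted p = 0.0221). DLK1 and LIN28A had too few counts to test, and these data do not separate absence from a level below the floor of 3 counts per library.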
